A study of Rattus norvegicus with 25 samples.

Results

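Livers of rats fed a purified diet supplemented with pyrroloquinoline quinone (PQQ) were compared with livers of rats fed standard laboratory chow. PQQ is a redox-active quinone made by bacteria and present in small amounts in food. The comparison took the 6 arrays labelled PQQ supplemented and the 6 labelled chow, 12 of the 25 arrays in the series. All rats were male Sprague-Dawley rats, and each array held unpooled liver RNA of a single rat.

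The supplemented rats were offspring of dams fed the basal diet, called ASD in the labels, with PQQ added over the last 10 days of gestation, and they stayed on that diet. The chow rats were an additional group kept as a reference on a complete laboratory diet. The labels give neither their age nor the diet of their dams. The supplemented and chow groups therefore differed in the base diet and in PQQ together, and these cannot be told apart. Of the other 3 groups, the deficient rats (6 arrays) had the basal diet without PQQ, the depletion rats (3 arrays) lost PQQ from their diet for 48 h at 6.5 weeks, and the repletion rats (4 arrays) were deficient rats injected with 1.5 mg PQQ per kg every 12 h for 36 h. The labels do not name cages or litters, so samples were treated as independent. The p-values use the spread between samples within all 5 groups, which also holds differences between arrays.

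The liver adjusts its enzymes to the diet. With carbohydrate in excess it makes fatty acids and cholesterol through the sterol-regulated and insulin-regulated factors SREBP-2 and SREBP-1c, and with protein in excess it breaks amino acids down for glucose and urea. Natural-ingredient chow also carries plant compounds that purified diets lack, and several enzymes that process steroids and foreign compounds respond to the diet.

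Levels are log2 normalized intensities, so a difference of 1 is 2-fold, and every difference is supplemented minus chow unless another is named. Chow 1 and 2 and supplemented 5 and 6 were nearly identical pairs: the SD of their log2 ratio over probes was 0.144 and 0.128, against 0.304 to 0.599 in the other pairs of arrays within the groups. Each pair entered as the mean of its arrays, 1 sample in all counts, called chow 1 and supplemented 5, which left 5 samples per group; the labels do not say whether the arrays of a pair are repeats of one RNA, and 828 probes passed with all 12 arrays as separate samples, against the 506 below. Arrays that shared defective spots formed 5 sets, and the groups were not balanced over them. Set 1 held supplemented 1 with chow 1 and 3, set 2 held supplemented 2 and 3, set 3 held supplemented 4 and 5 with 5 of the deficient arrays, and set 5 held the repletion arrays with chow 4, 5 and 6; set 4 held neither group. The median intensity above local background was 181.2 to 232.5 on the supplemented arrays, against 105.8 to 159.1 on the chow arrays, and its part in the differences was not tested. Chow 6 had the lowest, 105.8. The number of arrays limits the precision.

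In all, 506 of 5166 tested probes (9.79%) differed at an adjusted p under 0.05 in limma: 243 (4.7%) were higher in supplemented rats and 263 (5.09%) were lower. These stood for 191 and 201 named genes. The fold change exceeded 2 for 25 of the higher and 54 of the lower probes. For 245 of the 506 probes the samples of the groups did not overlap, as they did not for 425 of all 5166 (8.23%). The median difference over all tested probes was 0.03, with a median standard error (SE) of 0.148. With the array set as a fixed term 142 probes passed (27 higher, 115 lower), of which 36 were among the 506, and with it as a random term 76 passed (28 higher, 48 lower). The fixed term ties the groups together only through the samples of set 1, where 5101 of the 5166 tested probes had a difference. It cannot estimate the contrast of the other probes, which its counts did not leave out. Of the 506, 496 had a difference within set 1, and 465 of these kept their sign there. Samples of set 1 were among those that selected the 506, so shared signs are partly built in. Leaving out a sample moved the count by over 1.5 times for chow 3 (903), chow 6 (211), chow 5 (272), chow 4 (277), supplemented 4 (301) and supplemented 3 (328).

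**Figure D1:**
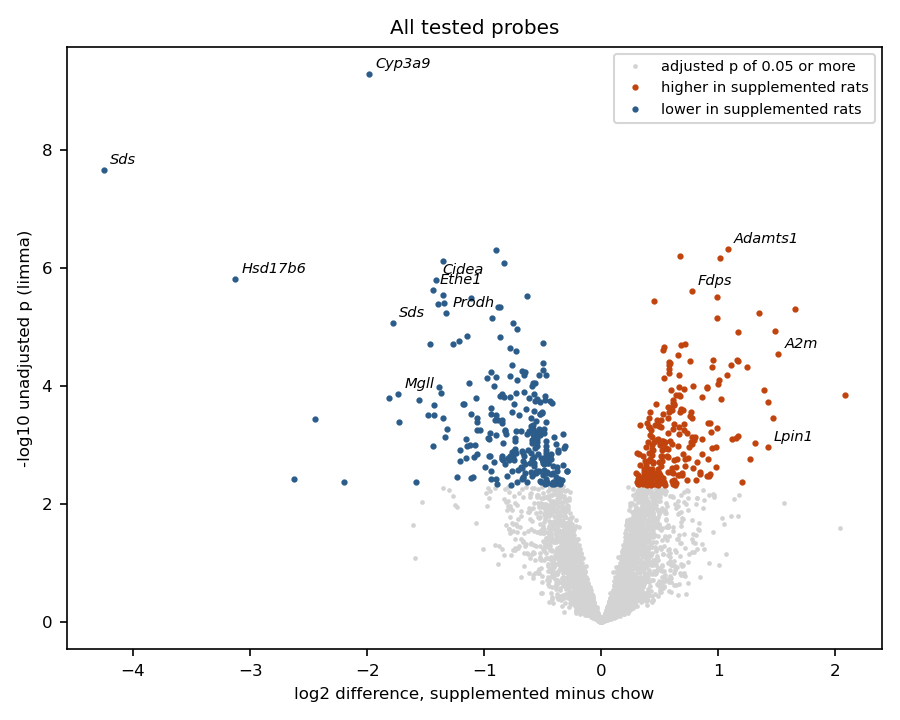
Each point is 1 of the 5166 tested probes, with the log2 difference of supplemented minus chow on the x axis and the -log10 of the unadjusted limma p on the y axis. Coloured points passed the threshold: 243 higher and 263 lower in supplemented rats; Cyp3a9 (-1.98) has the smallest p, and the second probe of Sds (-4.25) lies farthest from 0.

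Among the markers of the tissue, Alb and 3 of the other 4 tested hepatocyte markers did not pass, and Apoa1 did. None of 7 tested Kupffer cell and macrophage markers passed (the mean of their centred log2 levels was -0.02 to 0.15 in supplemented and 0.02 to 0.48 in chow samples), nor did any of 4 sinusoidal endothelial, 2 cholangiocyte or 4 pericentral hepatocyte markers. Of 7 periportal hepatocyte markers 2 were lower, Sds and Gls2, which are also in the amino acid breakdown list below, and the median of the 7 was 0.01; none of them passed with the array set as a fixed or random term or within set 1. Of 4 stellate cell and fibroblast markers only Col1a1, a fibrillar collagen chain, passed, with a difference of -0.73 ± 0.20 (SE, adjusted p = 0.0245) that lost its call on leaving out supplemented 1, 4 or 5 or chow 4, 5 or 6 (adjusted p up to 0.0794). No T cell marker of the 7 on the array and no skeletal muscle marker passed the filter on low values. The single neutrophil marker tested, S100a9, differed by 0.92 ± 0.31 with an adjusted p of 0.0599. In whole tissue, fewer cells of a type and less RNA per cell cannot be told apart.

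Several genes of cholesterol synthesis were higher in supplemented rats. Of 27 listed genes of sterol synthesis and uptake 15 were tested, and 7 were higher and none lower; their median difference was 0.64, against 0.03 for all tested probes. Among them were Msmo1, Sqle, Lss, Fdps, Idi1 and Mvd. Mvd and Idi1 make the isoprene units of the mevalonate pathway, Fdps joins them to farnesyl diphosphate, and Sqle and Lss form lanosterol, which Msmo1 and Cyp51 demethylate.

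Promoters of genes in this pathway are known to carry CCAAT boxes, bound by NF-Y, next to sterol regulatory elements. Windows of 300 bases, 250 before to 50 after the gene's start, were taken from RefSeq (build GRCr8) for the 5 of the 7 genes with an entry (Msmo1, Lss, Fdps, Idi1 and Mvd). All 5 windows held CCAAT on either strand. So did 12 of 13 windows of the listed sterol genes on the array, called or not (92.3%), and 12549 of 33469 windows of all genes (37.5%). The letters TCACNCCAC, a form of the sterol regulatory element, were in none of the 5 and in 1.12% of all windows, and CACGTG was in none of the 5 and in 6.42% of all; both strands were searched, and since neither occurred in the 5 windows, none overlapped CCAAT there. These counts are descriptions without a test. The 250 bases before the start of Fdps (chr2:176804817-176805066, minus strand), Idi1 (chr17:66547525-66547774, minus strand) and Lss (chr20:12118231-12118480, minus strand) are shown as examples, 5′ to 3′ on the gene's strand. These genes were called as higher, and whether they move together was not tested. Capitals mark CCAAT, written ATTGG where it lies on the opposite strand.
Fdps: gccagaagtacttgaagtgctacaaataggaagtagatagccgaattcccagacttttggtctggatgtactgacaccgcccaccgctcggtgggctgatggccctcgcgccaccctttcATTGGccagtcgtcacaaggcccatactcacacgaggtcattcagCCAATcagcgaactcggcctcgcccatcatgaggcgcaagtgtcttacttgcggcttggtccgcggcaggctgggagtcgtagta
Idi1: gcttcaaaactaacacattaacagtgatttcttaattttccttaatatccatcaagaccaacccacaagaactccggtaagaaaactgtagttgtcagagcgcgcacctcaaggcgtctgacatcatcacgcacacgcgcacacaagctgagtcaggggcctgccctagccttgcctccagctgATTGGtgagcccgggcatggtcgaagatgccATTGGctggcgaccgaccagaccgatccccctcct
Lss: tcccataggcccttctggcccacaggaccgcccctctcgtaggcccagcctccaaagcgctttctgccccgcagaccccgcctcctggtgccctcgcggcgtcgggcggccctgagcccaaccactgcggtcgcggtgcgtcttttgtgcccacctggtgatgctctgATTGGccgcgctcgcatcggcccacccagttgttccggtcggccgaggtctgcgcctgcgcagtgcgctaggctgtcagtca

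Sqle, squalene epoxidase, had levels of 9.25, 9.04, 9.38, 9.10 and 9.40 in supplemented samples, against 8.25, 8.63, 7.65, 8.01 and 7.80 in chow samples. The groups did not overlap, and the 3 lowest chow samples were those of set 5. The difference was 1.17 ± 0.23 (SE), 2.24-fold, with an adjusted p of 0.00401; it was 0.81 within set 1.

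Fdps had 14.30, 14.53, 14.70, 14.28 and 14.48 in supplemented samples, against 13.82, 13.89, 13.84, 13.49 and 13.39 in chow samples. All supplemented samples lay above all chow samples, by 0.77 ± 0.12 on average (adjusted p = 0.00104), and the difference within set 1 was 0.45. Msmo1 had 12.45 to 13.03 in 4 supplemented samples, against 11.01 to 11.54 in the 3 chow samples with a usable spot, all of set 5; its difference of 1.42 ± 0.31 (adjusted p = 0.00842) rests on fewer samples.

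Lss, Idi1 and Mvd were higher by 0.77, 0.75 and 0.64. Cyp51 had a difference of 0.87 ± 0.32 and no overlap between groups, but its adjusted p was 0.0802. Without chow 6, 3 sterol genes in place of 7 passed, and those lost included Lss (adjusted p = 0.0646), Idi1 and Mvd. Idi1 was lost without supplemented 3 as well (adjusted p up to 0.0771), and Mvd also without chow 1 or supplemented 3, 4 or 5 (up to 0.107). With the array set as a fixed term 2 of the sterol genes passed, with it as a random term 1, and 4 did in the authors' deposited values. The 2 include Msmo1, whose contrast the fixed term cannot estimate, since Msmo1 had no usable spot in set 1. The median difference of the list was 0.40 under the fixed term, Msmo1 included, and 0.38 within set 1. Ebp, a sterol isomerase of the same pathway, named after its values were seen, went the other way, at -0.64 ± 0.21 with an adjusted p of 0.0518, and at 0.06 within set 1. It passed as lower with median scaling, cyclic loess, array weights, all 12 arrays as separate samples or only the 2 groups in the fit, and without chow 3 or supplemented 1.

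Among genes of fatty acid synthesis, the desaturases Fads1 and Fads2 were higher. Of 11 tested genes 3 were higher, 1 was lower and 7 did not pass, with a median difference of 0.60. None passed in either direction with the array set as a fixed or random term; within set 1 only 1 was higher, and in the authors' deposited values 1 was higher and 1 lower. Fads1, the Δ5-desaturase of polyunsaturated fatty acid synthesis, had 13.05, 12.43, 12.34, 12.07 and 12.44 in supplemented samples, against 11.93, 11.85, 11.23, 11.50 and 11.13 in chow samples. Every supplemented sample lay above every chow sample, and the difference was 0.94 ± 0.25 (adjusted p = 0.0217), with 1.16 within set 1. Fads2, the Δ6-desaturase, was 0.60 higher without overlap (adjusted p = 0.035). Acsl3 and Acsl1 are acyl-CoA synthetases; Acsl3 was 0.65 higher (adjusted p = 0.0208), but its difference within set 1 was -0.01, and Acsl1 fell by 0.87 (levels of 9.67 to 10.02 in supplemented samples, against 10.36 to 11.23 in chow samples; adjusted p = 0.00779).

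The lipogenic enzymes themselves did not pass. Fasn, fatty acid synthase, had 10.48, 13.00, 11.69, 10.89 and 11.87 in supplemented samples, against 11.72, 11.50, 10.91, 11.38 and 11.04 in chow samples. The supplemented samples spread on both sides of the chow range, with a difference of 0.27 ± 0.33 (adjusted p = 0.635) that was -1.13 within set 1. Acly, which makes cytosolic acetyl-CoA, differed by 0.68 ± 0.32 (adjusted p = 0.172), Acaca, acetyl-CoA carboxylase, by 0.46 ± 0.20 (0.144) and Elovl6, a fatty acid elongase, by 0.68 ± 0.28 (0.12). The last 2 were picked after their values were seen. The 3 higher calls fell to none without chow 4 or chow 6 and to 1 without chow 5, supplemented 1 or supplemented 3; Fads2 was lost on leaving out any of 8 samples (adjusted p up to 0.107), Fads1 without supplemented 1, chow 4, 5 or 6 (up to 0.071), and Acsl3 without supplemented 3, chow 4 or chow 6 (up to 0.0748).

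Genes of lipid storage and breakdown moved both ways. Cidea, a lipid droplet protein that promotes droplet growth, had 7.20, 7.58, 7.02, 7.21 and 7.64 in supplemented samples, against 8.89, 8.24, 8.59, 8.80 and 9.21 in chow samples. It was lower in every supplemented sample, with a difference of -1.41 ± 0.22 (2.67-fold, adjusted p = 0.000841), and of -1.36 within set 1. Mgll, monoacylglycerol lipase, had 8.09 to 9.07 in supplemented samples, against 9.79 to 11.36 in chow samples; it fell by 1.73 ± 0.38 (adjusted p = 0.00767), with -0.76 within set 1. Lpin1, a phosphatidate phosphatase of triacylglycerol synthesis, had 11.71, 10.59, 11.31, 10.79 and 11.79 in supplemented samples, against 10.19, 9.94, 9.57, 10.01 and 9.36 in chow samples. It was higher by 1.42 ± 0.38 (adjusted p = 0.0213) without overlap, and by 1.65 within set 1; leaving out supplemented 1 or 5 or chow 4 or 6 ended the call (adjusted p up to 0.0671). Plin3, a droplet coat protein, fell by 0.55 (adjusted p = 0.0184, up to 0.0646 without supplemented 1, chow 5 or chow 6). Of the 12 tested glycerolipid genes 1 was higher and 2 were lower, with a median of 0.03.

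Of 21 tested genes of fatty acid oxidation 3 were higher and none lower, with a median of 0.18. They were Crat, carnitine acetyltransferase (0.71 ± 0.20, adjusted p = 0.0278), and Hadhb (0.49 ± 0.14, 0.0293) and Hadh (0.31 ± 0.10, 0.0479), enzymes of mitochondrial β-oxidation. Each of the 3 calls was lost on leaving out at least 5 of the 10 samples in turn, with adjusted p up to 0.136. None of the 3 passed with the array set as a fixed or random term, and within set 1 they differed by 0.05, 0.23 and 0.36. Fabp1, the liver fatty acid-binding protein, named after its values were seen, passed as lower with either term. It differed by -1.26 within set 1, against -0.28 with adjusted p = 0.281 over all samples. The fixed term and the set 1 value rest on the same samples, of which only supplemented 1 is a supplemented one. Apoa1 was higher by 0.33 ± 0.08 (adjusted p = 0.0136) and Apoa2 fell by 0.55 ± 0.12 (adjusted p = 0.00809), both without overlap. These are the main apolipoproteins of high-density lipoprotein, and within set 1 their differences were 0.48 and -0.84. The difference of Apoa1 depended on the scaling: it was 0.001 with median scaling (adjusted p = 0.997), 0.174 with cyclic loess (0.22) and 0.152 in the authors' deposited values (0.461).

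Some genes of amino acid breakdown were lower in supplemented rats. Of 28 tested genes 8 were lower, none higher and 20 did not pass; 23 had a negative difference, and the median was -0.26, against 0.03 for all probes. The count of lower calls was 6 to 8 on leaving out each sample in turn, 2 with the array set as a fixed term, 3 with it as a random term and 3 within set 1.

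Sds, serine dehydratase, which deaminates serine to pyruvate and is known to rise in rat liver with protein intake, had 11.58, 10.33, 9.95, 11.23 and 11.05 in supplemented samples, against 12.33, 12.64, 12.17, 12.62 and 13.28 in chow samples. It was lower in every supplemented sample, with a difference of -1.78 ± 0.31 (3.43-fold, adjusted p = 0.00162), and of -0.90 within set 1. A second, dimmer probe of the same transcript showed 7.08 ± 0.84 in supplemented and 11.33 ± 0.77 in chow samples (SD, n = 5 each), a difference of -4.25 ± 0.50 (SE).

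Prodh, proline dehydrogenase, had 9.62, 10.07, 9.65, 10.27 and 10.62 in supplemented samples, against 11.65, 10.98, 11.20, 11.67 and 11.35 in chow samples. The groups did not overlap, and the difference of -1.33 ± 0.22 (adjusted p = 0.00127) was -1.70 within set 1; it was called with the array set as a fixed term too (adjusted p = 0.0278). Gls2, the liver glutaminase, fell by 1.27 ± 0.23 (adjusted p = 0.00268) and Gpt, alanine aminotransferase, fell by 1.21 ± 0.22 (adjusted p = 0.00267), both without overlap. Within set 1, with 1 supplemented sample, they differed by -1.08 and -1.21. Neither passed with the array set as a fixed term (adjusted p = 0.275 and 0.0929). Aspg, an asparaginase, had 8.59 to 9.06 in supplemented samples, against 9.59 to 10.08 in chow samples, and fell by 0.93 ± 0.16 (adjusted p = 0.00142).

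The branched-chain pathway appeared in this list through Ppm1k, the phosphatase that activates branched-chain ketoacid dehydrogenase, and Ivd, isovaleryl-CoA dehydrogenase of leucine breakdown. Ppm1k fell by 0.76 ± 0.23 (adjusted p = 0.0377; up to 0.0816 and lost on leaving out any of 7 samples). Ivd fell by 0.72 ± 0.15 (adjusted p = 0.0056), with levels of 10.61 to 11.30 in supplemented samples, against 11.17 to 11.91 in chow samples, which overlap at chow 3. Ivd and Agxt, alanine-glyoxylate aminotransferase (-0.57 ± 0.14, adjusted p = 0.0159, and 0.0528 without chow 6), are named to complete the 8. Fah, the last enzyme of tyrosine breakdown, had the largest difference that did not pass, -0.74 ± 0.37 (adjusted p = 0.195), and 0.29 within set 1.

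**Figure D2:**
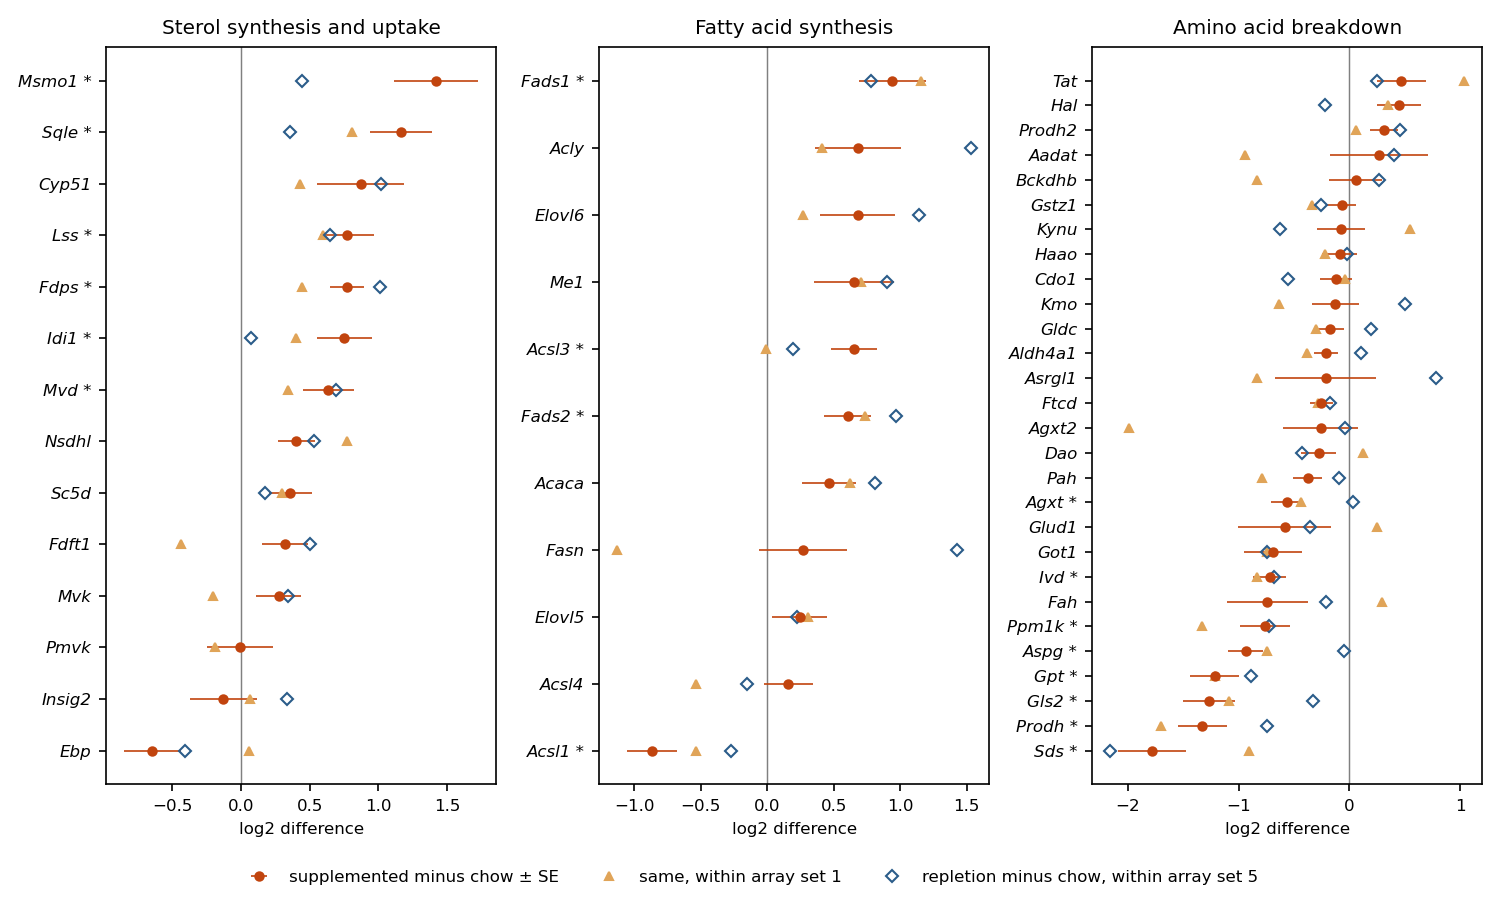
Log2 differences of members of 3 lists, as points with SE bars for supplemented minus chow, triangles for the same contrast within array set 1 and open diamonds for repletion minus chow within set 5; asterisks mark members whose supplemented minus chow difference passed. Msmo1 had no value within set 1. Of 14 sterol genes shown 11 lie right of 0, and of 28 amino acid breakdown genes 23 lie left of it.

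Ethe1, the mitochondrial persulfide dioxygenase of sulfide oxidation, lies next to these pathways and was lower without overlap: 10.31, 10.87, 10.16, 10.47 and 11.09 in supplemented samples, against 12.09, 11.76, 11.85, 12.10 and 12.27 in chow samples. The difference was -1.44 ± 0.23 (adjusted p = 0.00104) and -1.62 within set 1. Of 10 tested genes of sulfur amino acid and one-carbon metabolism 1 was lower, Gnmt, glycine N-methyltransferase (-0.72 ± 0.22, adjusted p = 0.0467). That call was lost on leaving out any of 8 samples (adjusted p up to 0.111).

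In the list of serine synthesis and amino acid response genes 3 of 9 were higher, none was lower, and the median was 0.33; none passed with the array set as a fixed or random term or within set 1. Cars1, cysteinyl-tRNA synthetase, averaged 9.85 ± 0.29 in supplemented and 9.23 ± 0.18 in chow samples (SD, n = 5 each) without overlap; it was higher by 0.62 ± 0.14 (adjusted p = 0.00815), and by 0.83 within set 1. Psph, phosphoserine phosphatase, the last step of serine synthesis, was higher by 0.51 ± 0.14 (adjusted p = 0.0261) and Wars1, tryptophanyl-tRNA synthetase, by 0.33 ± 0.10 (0.0439). Those calls were lost on leaving out any of 6 and any of 8 samples (adjusted p up to 0.0787 and 0.0928). Nupr1, a stress-induced nuclear protein, differed by 0.82 ± 0.28 and did not pass (adjusted p = 0.0626).

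Steroid and drug metabolism held the largest differences in a few genes, while most of the genes listed did not pass: of 15 tested steroid dehydrogenases and reductases 2 were lower (Hsd17b6 and Hsd3b5), of 15 sex-patterned and growth hormone-responsive genes these 2 and Cyp3a9, and of 15 tested xenobiotic-inducible genes Cyp3a9 was lower and Aldh1a1 higher. Hsd17b6, a dehydrogenase that oxidises androgens and other hydroxysteroids, had 8.79, 8.19, 7.29, 9.27 and 9.55 in supplemented samples, against 12.11, 11.34, 10.28, 12.15 and 12.83 in chow samples. The highest supplemented sample was below the lowest chow sample; the difference was -3.12 ± 0.48 (8.72-fold, adjusted p = 0.000841), and -2.94 within set 1. Cyp3a9, a rat cytochrome P450 that is more abundant in female than in male liver, had 7.43, 6.94, 7.05, 7.28 and 7.56 in supplemented samples, against 9.34, 9.71, 8.85, 9.11 and 9.16 in chow samples. It fell by 1.98 ± 0.19 (3.95-fold, adjusted p = 2.7e-06), with -2.10 within set 1. Cyp3a9 and Eri2 were the only 2 of the 63 called genes named in these results whose call held under every alternative that was run.

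Cyp3a9 was also the only P450 of 27 tested whose brightest probe passed, and the median difference of the 27 was 0.05. Second probes of Cyp17a1 and Cyp3a23-3a1 did pass, which were singled out after their values were seen. Cyp17a1, steroid 17α-hydroxylase, had 10.87 ± 0.31 in supplemented and 9.22 ± 0.47 in chow samples (SD, n = 5 each) on its second probe (1.65 ± 0.27 SE, adjusted p = 0.00118), against 10.95 ± 0.14 and 10.78 ± 0.39 on its brightest (0.17 ± 0.17, adjusted p = 0.54), so its probes disagree. Cyp3a23-3a1, the classical inducible rat form, differed by -0.60 ± 0.18 (adjusted p = 0.0378) and by -0.37 ± 0.44 (0.622) on its 2 probes. Cyp1a2, which processes planar aromatic compounds, had 14.13 to 14.78 in supplemented samples, against 14.45 to 14.92 in chow samples (-0.31 ± 0.18, adjusted p = 0.274).

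Aldh1a1, a retinal dehydrogenase, was higher by 1.20 ± 0.38 (adjusted p = 0.0468), and the call was lost on leaving out any of 7 samples (up to 0.123). Hsd3b5, a male-specific rodent 3β-hydroxysteroid dehydrogenase family member, fell by 0.49 ± 0.12 (adjusted p = 0.016, and 0.0513 without supplemented 4). Gclm, the modifier subunit of glutamate-cysteine ligase, was higher by 0.61 ± 0.15 without overlap (adjusted p = 0.015). It was the single call among 23 tested glutathione and antioxidant genes, whose median was -0.17. Nqo1, a quinone reductase, had 6.48, 6.62, 7.28, 9.05 and 8.03 in supplemented samples, against 8.88, 8.92, 7.18, 9.87 and 9.36 in chow samples (-1.35 ± 0.44, adjusted p = 0.0518), and Hsd17b2 differed by -1.30 ± 0.43 (0.0544) without passing.

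None of 16 tested genes of bile acid synthesis and transport passed on its brightest probe, with a median of 0.25. Cyp7a1, the rate-limiting enzyme of bile acid synthesis, ranged from 9.39 to 12.23 in supplemented samples, against 9.52 to 11.53 in chow samples (0.08 ± 0.61, adjusted p = 0.952). Amacr, an α-methylacyl-CoA racemase, differed by -0.98 ± 0.35 (adjusted p = 0.0758) and by -0.67 ± 0.18 (0.0246) on its 2 probes.

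Among plasma proteins, Orm1 and A2m moved in opposite directions. Orm1, α1-acid glycoprotein, had 10.50, 10.58, 10.19, 10.42 and 11.10 in supplemented samples, against 11.75, 11.76, 11.60, 11.88 and 12.50 in chow samples, and fell by 1.34 ± 0.22 (adjusted p = 0.00113). A2m, α2-macroglobulin, an acute phase protein of rats, had 9.84, 10.39, 9.46, 10.27 and 9.13 in supplemented samples, against 8.36, 8.69, 8.52, 8.10 and 7.86 in chow samples, and was higher by 1.51 ± 0.29 (adjusted p = 0.00342). Neither gene's groups overlapped, and within set 1 the differences were -1.26 and 1.31. They were the only calls among 15 tested acute phase genes, whose median was 0.28. Serpina7, thyroxine-binding globulin, had 8.03, 9.09, 8.14, 8.23 and 7.84 in supplemented samples, against 7.27, 6.79, 7.47, 6.99 and 6.25 in chow samples; it was higher by 1.31 ± 0.34 (adjusted p = 0.0193, and 0.0684 without chow 6).

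**Figure D3:**
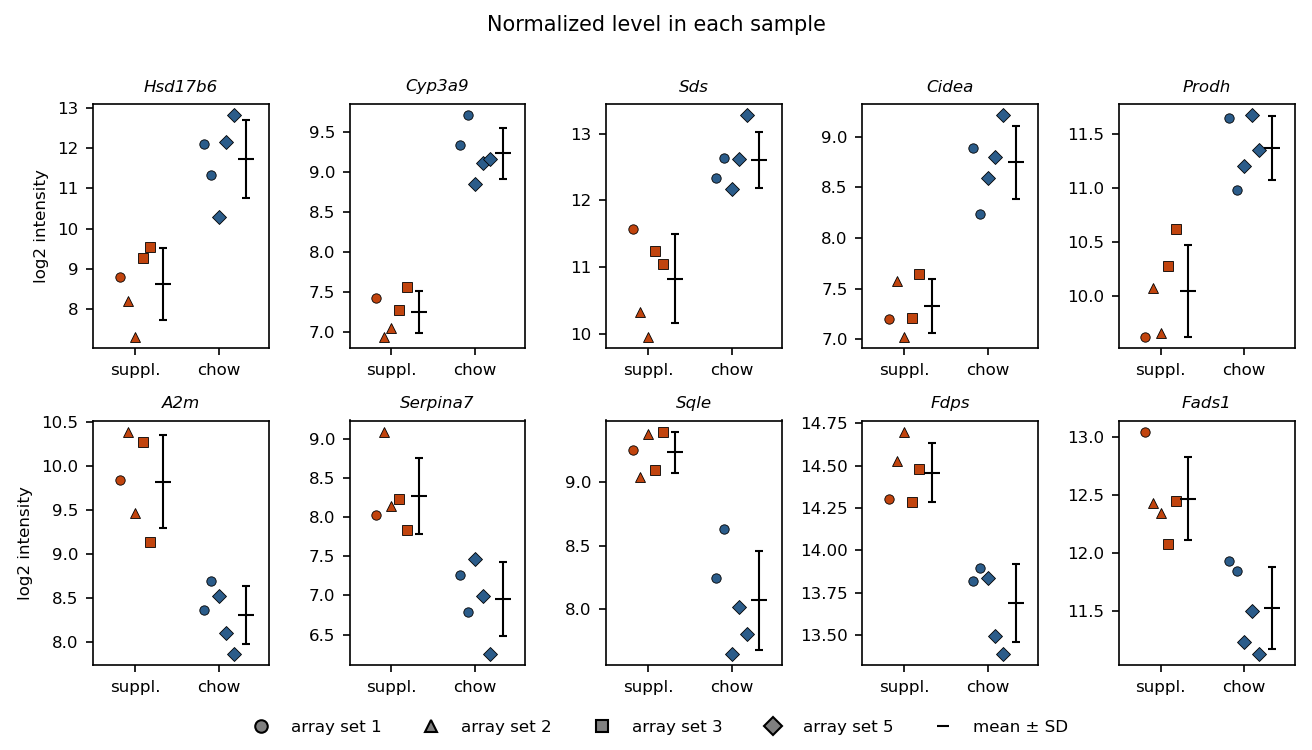
Log2 normalized intensity of 10 genes in each sample, supplemented left and chow right; marker shapes give the array set and bars the mean ± SD of 5 samples. In these 10 genes no supplemented sample falls within the chow range, and the rule that chose most of them required this.

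Among insulin-related and clock genes, Irs2, Dbp and Cry2 were lower. Irs2, an insulin receptor substrate, had 7.81, 6.86, 6.86, 7.09 and 8.72 in supplemented samples, against 9.15, 9.12, 8.67, 8.38 and 9.21 in chow samples. Supplemented 5 lay inside the chow range, and the difference was -1.44 ± 0.38 (adjusted p = 0.0206; up to 0.0635 without supplemented 3 or 4 or chow 6). Pklr, liver pyruvate kinase, differed by -0.15 ± 0.24 (adjusted p = 0.734), and none of 19 glycolysis, fructolysis and gluconeogenesis genes passed. Of 5 tested clock genes Dbp (-1.16 ± 0.32, adjusted p = 0.0272) and Cry2 (-0.74 ± 0.19, 0.0176) were lower. Both calls were lost without supplemented 4 or chow 6, and that of Dbp without supplemented 3 (adjusted p up to 0.0796). Bmal1, whose rhythm runs opposite to that of Dbp, differed by 0.43 ± 0.22 (0.219). The labels name no time of day for sampling, and its part was not tested.

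Single calls came from other lists. Rpia, ribose 5-phosphate isomerase, was higher by 0.66 ± 0.20 among 6 genes of the pentose phosphate pathway and NADPH supply (adjusted p = 0.0407). Hspa8, a constitutive heat shock protein, was higher by 0.69 ± 0.21 among 12 stress genes (0.039), and Ifit2, an interferon-induced protein, by 0.68 ± 0.16 without overlap among 13 interferon and antigen presentation genes (0.00995). The calls of Rpia and Hspa8 were lost on leaving out any of 6 and any of 7 samples (adjusted p up to 0.118 and 0.0985). None of 25 oxidative phosphorylation genes, 21 ribosomal protein genes, 14 iron and heme genes or 5 proliferation genes passed, with medians of -0.18, -0.03, 0.12 and 0.14; Alas1, the rate-limiting enzyme of heme synthesis, differed by 0.96 ± 0.41 (adjusted p = 0.136), and Mki67, a proliferation marker, by 0.96 ± 0.33 without overlap (0.0615).

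Among the largest differences outside the lists, Eri2, of the ERI exoribonuclease family, fell by 1.35 ± 0.22 (6.29 to 7.77 in supplemented samples, against 7.91 to 8.43 in chow samples; adjusted p = 0.00104), with -1.87 within set 1. Pdlim5, a cytoskeletal adaptor, had 6.46, 7.42, 7.48, 7.37 and 7.10 in supplemented samples, against 7.66 and 7.48 in set 1 chow and 9.11, 9.10 and 9.41 in set 5 chow. It fell by 1.39 ± 0.29 (adjusted p = 0.00651), with -1.11 within set 1, but its chow samples lay apart by array set, and those of set 1 lay close to 4 of the supplemented samples. Its repletion minus chow difference within set 5 was -0.29 (adjusted p = 0.51). Map2k5, a MAP kinase kinase, fell by 1.20 ± 0.32 on its brightest probe (adjusted p = 0.0224, lost without supplemented 2, 3 or 4 or chow 6, up to 0.0568), but its other probe gave -0.01. Adamts1, a secreted metalloprotease, was higher by 1.08 ± 0.15 (9.90 to 10.66 in supplemented samples, against 9.04 to 9.47 in chow samples; adjusted p = 0.000536), and Sorbs2, a cytoskeletal adaptor, by 1.01 ± 0.15 (10.29 to 10.80, against 9.19 to 9.85; 0.000536). Within set 1 they were higher by 1.29 and 1.10.

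A further 7 of the 14 higher genes with the largest differences, none of them in a list, showed chow samples apart by array set. Mobp, a myelin protein, had 10.95 to 11.51 in supplemented samples, against 10.20 and 10.72 in set 1 chow and 9.22, 9.47 and 9.42 in set 5 chow. The same order held in Peli1, a ubiquitin ligase of innate immune signalling, Ptgis, prostacyclin synthase, Vps33b, of vesicle traffic, Kcnh8, a potassium channel, Prc1, of cytokinesis, and Cep43, a centrosomal protein. Over these 7 genes the differences were 0.99 to 1.35 over all samples, against 0.19 to 0.61 within set 1, and array set and diet cannot be told apart in them beyond set 1.

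**Figure D4:**
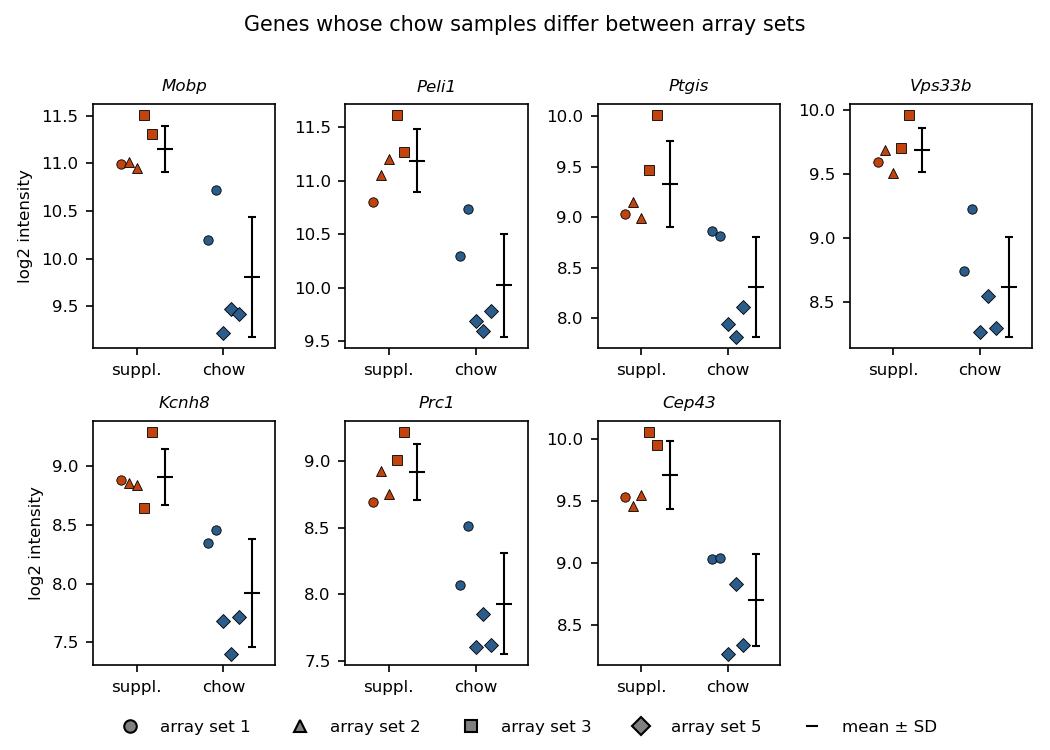
Log2 normalized intensity of 7 genes in each sample, supplemented left and chow right, with marker shapes for the array set and bars for the mean ± SD of 5 samples. In all 7, the chow samples of set 1 (circles) lie above those of set 5 (diamonds) and below the supplemented samples. The rule that chose these genes required that supplemented and chow samples not overlap.

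Within set 5, other rats on a purified diet could be compared with some of the same chow rats. The 4 repletion samples, raised on the basal diet without PQQ and then injected with it, were set against chow 4, 5 and 6, which are also in the comparison above; the contrasts share those samples. Of 5143 tested probes 42 (0.817%) passed, 22 (0.428%) higher and 20 (0.389%) lower in repletion rats. Repletion minus chow was -1.45 for Cyp3a9 (adjusted p = 0.00171), -2.16 for Sds (0.00986), -0.93 for Cidea (0.0403), -0.68 for Ivd (0.0465), 1.91 for A2m (0.00285), 2.12 for Serpina7 (0.0422), 0.75 for Adamts1 (0.0465), 1.01 for Fdps (0.0188), 0.78 for Fads1 (0.0423), 0.93 for Crat (0.0377), 0.98 for Cars1 (0.0167) and -1.12 for Map2k5 (0.0465).

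The lipogenic genes that did not pass in supplemented rats passed in this contrast: Acly by 1.53 (adjusted p = 0.00458), Fasn by 1.43 (0.00949), Elovl6 by 1.14 (0.0331) and Acaca by 0.81 (0.0253), and so did Nupr1, by 1.87 (0.00171). The median of the fatty acid synthesis list was 0.81 in repletion minus chow and 0.60 in supplemented minus chow, and that of the sterol list was 0.40 and 0.64. Of other genes called lower in supplemented rats, Aspg was at -0.05 here (adjusted p = 0.911), Orm1 at -0.27 (0.736) and Apoa2 at 0.02 (0.927). Hsd17b6 was at -1.99 with an adjusted p of 0.15. Cyp1a2 passed at -0.75 (0.0422), and Cyp7a1, at -2.13, did not (0.0801). Whether the contrasts differ was not tested. In the limma fit of all 5 groups, with all chow samples, repletion minus chow did not pass for Acly (adjusted p = 0.0631), Fasn (0.0802), Elovl6 (0.0524) or Acaca (0.169). Nor did it for Cidea (0.0804), Ivd (0.0995), Fads1 (0.381), Crat (0.0977) or Map2k5 (0.0684). The other genes named as passing in set 5 passed there too.

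The remaining groups gave the following levels (mean ± SD) for genes with large differences, over 6 deficient, 3 depletion and 4 repletion arrays. Hsd17b6 averaged 8.62 ± 0.90 in supplemented rats, 8.68 ± 0.67 in deficient rats, 10.02 ± 0.99 in depletion rats and 9.76 ± 0.55 in repletion rats, against 11.74 ± 0.97 in chow rats. Cyp3a9 averaged 7.25 ± 0.26 in supplemented rats, 7.91 ± 0.42 in deficient rats, 7.39 ± 0.23 in depletion rats and 7.59 ± 0.12 in repletion rats, against 9.23 ± 0.32 in chow rats. In both genes every purified-diet group had a mean below that of chow. Dbp averaged 11.08 ± 0.52 in supplemented rats, 13.38 ± 0.16 in deficient rats, 9.62 ± 1.08 in depletion rats and 11.01 ± 0.57 in repletion rats, against 12.24 ± 0.48 in chow rats, with the deficient group above chow and the depletion group below.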

How the data were processed

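Liver RNA, biotin-labelled, was hybridized to 1 CodeLink UniSet Rat I array per rat, per the labels' protocols. Per the file headers, the deposited tables hold a raw intensity and a local background intensity for each of 10399 spots, with a quality flag. The authors' deposited value table holds a normalized signal per probe whose centring is not stated; its column medians are 0.716 to 0.972, its ranks correlate at 0.997 to 0.9997 with the scanner values, and it was used only as an alternative. The software that made these values is not given in the sources used here.

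Spots flagged 1 were set missing, and 488 control spots were left out of 9911 gene probes' normalization. Intensities were corrected with normexp (offset 50), quantile-normalized and put on the log2 scale in limma 3.58.1 (R 4.3.3); tables and figures were made in Python 3.11.15. All 5 groups entered a limma fit of 23 samples, with the Benjamini-Hochberg threshold at 0.05. A probe was tested if it lay above its array's median gene probe in at least 50% of the samples of a group. Such a filter can pass a probe through the group in which it is high. The steps were tested on simulated data. Symbols came from the platform annotation: 7352 probes had 1 symbol, 90 several and 2469 none, and probes with several were not named. The brightest probe stands for its gene. The brightest probes of all genes described were above the limit set by bacterial control spots on every usable array.

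Named genes were the 14 higher and 14 lower called genes with the largest differences, no overlap, at least 4 usable samples per group and a signal above background; up to 6 called members of each list and its largest difference that did not pass; a few fixed enzymes; and every called P450. A few of these genes are not reported here; list counts and medians include them. The members and lists were chosen with earlier results of these data known. Array sets are arrays whose flagged spots overlapped by more than 0.5 of their union (0.646 to 0.956 within sets, 0.142 to 0.327 between). Within set 1 the contrast has 1 supplemented and 2 chow samples.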

Additional observations from a re-analysis of the deposited data

Results flagged for a closer look

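In 8 of the 180 groups of 4 or 5 samples checked, 1 sample lay far from the others by Dixon's test, which chance alone gives in about 1 group in 20. Atp5pd, a subunit of ATP synthase, had 11.18 in supplemented 1, against 14.11 to 14.29 in the other supplemented samples. Ghr, the growth hormone receptor, had 10.41 in supplemented 1, where the others had 11.76 to 11.95. Il6r, an interleukin 6 receptor subunit, had 8.90 in chow 6 and 10.14 to 10.56 in the other chow samples. Rdh7, a retinol dehydrogenase, had 9.69 in supplemented 5, with 10.83 to 11.23 in the others. Flt1, an endothelial receptor, had 9.32 in supplemented 5, against 9.03 to 9.07. Elovl6 had 9.35 in supplemented 2, against 7.72 to 8.04 in the other supplemented samples, and the same rat had the highest Fasn level, 13.00. Ivd had 11.17 in chow 3, against 11.70 to 11.91, and Iars1, isoleucyl-tRNA synthetase, had 10.36 in chow 3, against 9.95 to 10.07 in the other chow samples.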

How the results depend on the processing

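The 506 probes became 300 with only the supplemented and chow groups in the fit, 828 with all 12 arrays as separate samples, 889 with array weights, 142 and 76 with the array set as a fixed and as a random term, and 116 within set 1. Leaving out each sample in turn gave 211 to 903. Other corrections, scalings, filters and the authors' deposited table gave 371 to 670. Of the 506 calls, 48% were higher in supplemented rats, against 37.5% of the 544 calls after cyclic loess and 34.5% of the 371 in the authors' deposited table. Replicate numbers do not pair the rats (correlations of same-numbered samples' deviations 0.0701, 0.0783, -0.103 and -0.263), and with the replicate number as a block 478 probes passed (241 higher, 237 lower). Of the 63 called genes named, 11 kept their call under the fixed term and 19 under the random term, and 35 kept it on leaving out each sample. The 11 count Msmo1, whose contrast the fixed term cannot estimate, since Msmo1 had no usable spot in set 1. At least 48 kept their call under each alternative other than these and the fit within set 1. Differences that changed sign were those of Acsl3 (-0.012), Fah (0.290), Cyp7a1 (-0.369) and Fasn (-1.131) under the fixed term, with the same values within set 1, Cyp7a1 (-0.057) and Fasn (-0.401) under the random term, and, over the samples left out in turn, Cyp7a1 (-0.274 to 0.435), Ghr (-0.298 to 0.140, above 0 without supplemented 1) and Fasn (-0.083 to 0.546, below 0 without supplemented 2). Ebp changed sign as well, at 0.056 within set 1 against -0.643 over all samples. Apart from the library or set left out, the cause was not tested. Median differences of all probes moved from 0.03 to -0.04 in the authors' deposited table and to 0.00 after cyclic loess.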

Other observations

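Aminoacyl-tRNA synthetases, the enzymes that load amino acids onto tRNA, were picked as a list after the values of Cars1 and Wars1 were seen, so the list carries no test. Of 12 tested members 4 were higher in supplemented rats, none was lower, 10 differences were positive, and the median was 0.35, against 0.03 for all probes. Besides Cars1 and Wars1 these were Tars1, with 11.66, 11.18, 11.65, 11.80 and 11.11 in supplemented samples, against 10.36, 11.35, 10.57, 10.32 and 10.15 in chow samples (0.93 ± 0.28 SE, adjusted p = 0.0395), and Iars1 (0.58 ± 0.12, adjusted p = 0.00506). The call of Tars1 was lost on leaving out any of 7 samples (adjusted p up to 0.111).

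Bckdk, the kinase that inactivates branched-chain ketoacid dehydrogenase and so opposes the phosphatase Ppm1k, was singled out after its values were seen. It had 10.21, 9.64, 9.28, 9.60 and 9.45 in supplemented samples, against 9.14, 8.95, 8.53, 8.73 and 8.94 in chow samples. It was higher in every supplemented sample, by 0.78 ± 0.20 (adjusted p = 0.02), and by 1.16 within set 1; without supplemented 1, chow 4 or chow 5 the adjusted p was up to 0.0621. Crym, a thyroid hormone-binding protein, also chosen after its values were seen, had 9.42, 9.42, 8.72, 7.74 and 10.28 in supplemented samples, against 10.91, 10.40, 9.83, 10.45 and 10.75 in chow samples (-1.35 ± 0.32, adjusted p = 0.0117), and -1.23 in repletion minus chow within set 5 (0.0423). The 2 probes of Stat3 passed or nearly passed in opposite directions, 0.47 ± 0.15 (adjusted p = 0.0516) on the brighter and -1.12 ± 0.29 (0.0205) on the dimmer, which match different sequence records, so no direction is given for the gene.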
